A study of Mus musculus with 9 samples.

Results

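Genes that mark developing T cells, the thymocytes, were followed through sorted thymic epithelium: Cd8a, Cd4, Rag1, Rag2, Dntt, Ptcra, Cd3e, Bcl11b, Lck and Themis, 10 in all. Members were taken as probe sets annotated to 1 of these symbols and no other, which matched 9 of the 10 genes through 22 of 34958 single-symbol probe sets. Each gene was read at its brightest probe set (highest mean log2 value over all arrays), which placed 9 members among 18194 genes. Lck was not matched, so no intensity of it is given, and it enters only the counts of upstream sequences. RNA from 3 groups of 3 samples was hybridised to 9 mouse arrays: ZsG plus, ZsG minus mTEC and ZsG minus cTEC, cells of C57BL/6 background from mice 8 to 20 weeks old. ZsG is a reporter placed at the start codon of Tslp in a bacterial artificial chromosome transgene, so reporter signal follows that transgene and not the native locus. mTEC and cTEC are medullary and cortical thymic epithelial cells. The labels describe transgenic breeding for the colony but give neither the genotype of each sample nor the sort markers, and they do not say whether a sample pooled animals or whether ZsG plus cells came from cortex or medulla. The label field for cell type reads keratinocytes on every sample.

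Thymocytes are the most numerous cells of the thymus, and their double-positive stage, in which both Cd4 and Cd8a are expressed, fills the cortex. Rag1 and Rag2 form the recombinase that cuts antigen receptor genes, and Dntt adds untemplated nucleotides at the junctions. Ptcra pairs with a new receptor beta chain to form the pre-receptor of immature cells, Cd3e belongs to the signalling part of both receptors, and Themis and Bcl11b are needed for passage to mature T cells. Some cortical epithelial cells are known to enclose thymocytes, the so-called nurse cells. These genes are products of thymocytes in textbook accounts and are used to gauge lymphoid RNA in epithelial sorts, although Cd4 and Cd8a are also known from dendritic cell and macrophage subsets and Bcl11b from skin keratinocytes.

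All values are deposited probe set intensities on a linear scale, in arbitrary units, and sums of them over a list are rounded to 4 digits. The array medians ranged over 230.3 to 316 for ZsG plus, 366 to 424 for ZsG minus mTEC and 376 to 404 for ZsG minus cTEC. Signal at the 3' end of Gapdh divided by that at its 5' end, which rises as RNA shortens, was 6.71 to 10.6 for ZsG plus, 4.66 to 5.97 for ZsG minus mTEC and 4.54 to 5.60 for ZsG minus cTEC. The 6 control probe sets for the bacterial genes DapX and PheX read 3.77 to 341 over the 9 arrays, and readings inside that range are called dim here. Their highest reading differed by array: 143.7, 340.9 and 307.2 for ZsG plus replicates 1 to 3. For ZsG minus mTEC it was 130.7, 139.4 and 48.65, and for ZsG minus cTEC 127.5, 141.8 and 240.6. A dim reading can thus lie above the controls of its own array. The epithelial genes Epcam and Krt8 were bright in all groups, with geometric means of 44971 and 66080.5 for ZsG plus, 33275 and 40619 for ZsG minus mTEC, and 11742 and 18476 for ZsG minus cTEC. Aire, the medullary regulator, stood at 16989.8 for ZsG plus, 19854 for ZsG minus mTEC and 1973 for ZsG minus cTEC, and the cortical protease gene Prss16 at 1173, 2963 and 48742.

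Cd8a, the co-receptor chain of cytotoxic and double-positive T cells, was far dimmer in both ZsG plus and ZsG minus mTEC than in ZsG minus cTEC. It read 378, 382 and 565 for ZsG plus, 1168, 911 and 342 for ZsG minus mTEC, and 8602, 6353 and 7951 for ZsG minus cTEC. The lowest ZsG minus cTEC array stood 11.2-fold above the highest ZsG plus array and 5.44-fold above the highest ZsG minus mTEC array. In ZsG plus against ZsG minus cTEC it fell by 4.13 ± 0.61 on the log2 scale (standard error from limma, n = 3 arrays per group throughout; limma adjusted p = 0.0228). In ZsG minus mTEC against ZsG minus cTEC it fell by 3.41 ± 0.61, just past the threshold of 0.05 (limma adjusted p = 0.0491, and from 0.00648 to 0.175 over the 19 alternatives). Cd8a arrays of ZsG plus and ZsG minus mTEC overlapped, at −0.72 ± 0.61 with a 95% interval of −2.09 to 0.65. Leaving out any 1 array of ZsG minus cTEC ended both calls (limma adjusted p = 0.0746 to 0.111 for the first and 0.123 to 0.175 for the second), settings in which at most 0.126% of all genes passed. The second was also lost without any 1 array of ZsG minus mTEC (limma adjusted p = 0.142 to 0.166) and without ZsG plus replicate 1 or 2 (limma adjusted p = 0.0515 and 0.0530).

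Cd4, the co-receptor of helper and double-positive T cells, did not pass in any comparison. It read 126, 655 and 5313 for ZsG plus, 33.1, 327 and 1996 for ZsG minus mTEC, and 4399, 2571 and 3464 for ZsG minus cTEC. The ZsG minus cTEC arrays lay within 1.71-fold of each other, while the highest array was 42.3-fold above the lowest in ZsG plus and 60.2-fold above it in ZsG minus mTEC. ZsG plus replicate 3 exceeded every ZsG minus cTEC array. On that array the 13 measured dendritic cell and macrophage markers, none of which was at 0, summed to 106900, against 50470 and 35530 on the other ZsG plus arrays, 40720 to 54240 for ZsG minus mTEC and 18330 to 53550 for ZsG minus cTEC, and their part in the Cd4 reading was not tested. ZsG minus mTEC replicate 3, the highest of its group in Cd4, had the lowest such sum of that group, 40720. On ZsG plus replicate 3 the marker Lyz2 alone read 66337. That array also had the highest ZsG plus sums of pan-leukocyte (249600), fibroblast (25830) and epithelial identity genes (316000). It had the lowest ZsG plus sums of some other lists, such as cortical epithelial genes (56900). The differences of Cd4 were −2.16 ± 1.60 in ZsG plus against ZsG minus cTEC (limma adjusted p = 0.50) and −3.61 ± 1.60 in ZsG minus mTEC against ZsG minus cTEC (limma adjusted p = 0.404). For ZsG plus against ZsG minus mTEC it was 1.45 ± 1.60, with a 95% interval of −2.15 to 5.05. Its second probe set read 1024, 309.9 and 479 for ZsG plus, 1468, 327 and 62.2 for ZsG minus mTEC, and 2715, 2483 and 1655 for ZsG minus cTEC, so there the ZsG minus cTEC arrays lay above all others.

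**Figure D1:**
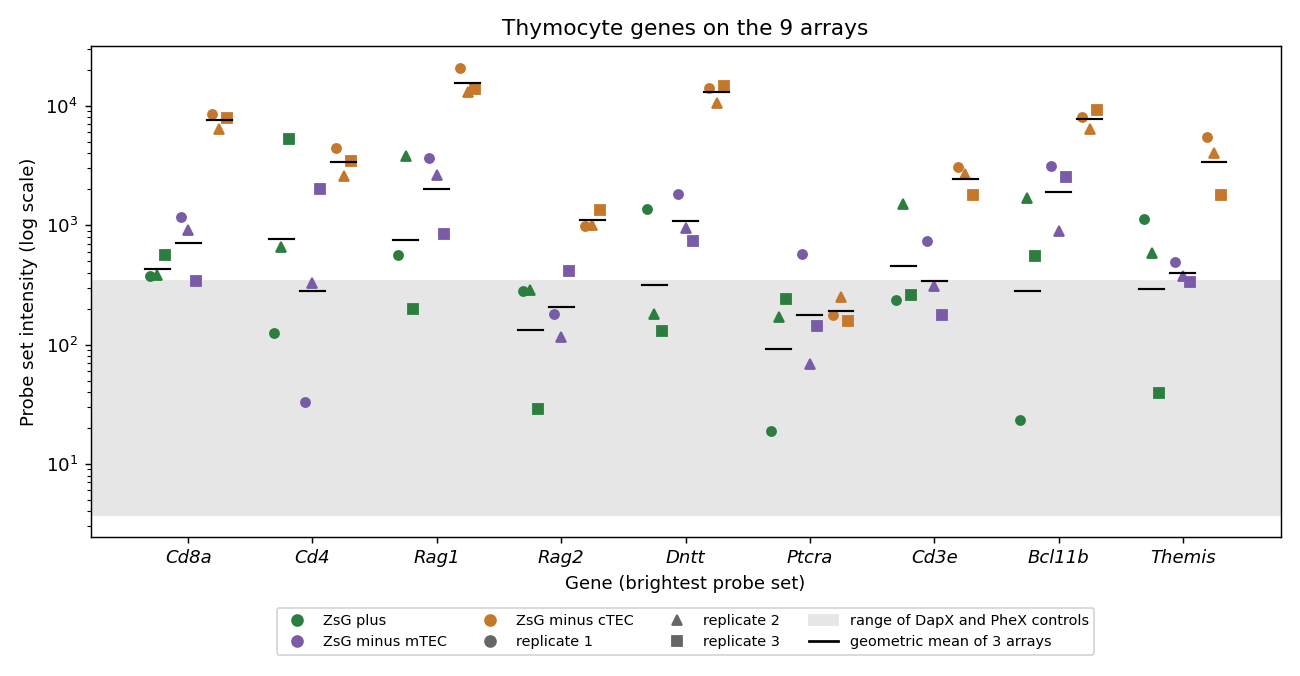
Intensity (log scale) of the brightest probe set of each of 9 thymocyte genes on every array. Marker shape gives the replicate number, and whether equal numbers are linked across groups is not stated. Black bars give the geometric mean of 3 arrays, and grey the range of the DapX and PheX control probe sets (3.77 to 341). ZsG minus cTEC arrays lie above all ZsG minus mTEC arrays for every gene shown except Ptcra, and above all ZsG plus arrays except for Ptcra and Cd4.

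The recombination genes were also highest on every ZsG minus cTEC array. Rag1, the catalytic recombinase subunit, read 568, 3815 and 199 for ZsG plus, 3646, 2633 and 838 for ZsG minus mTEC, and 20659.6, 13152 and 13893 for ZsG minus cTEC. Every ZsG minus cTEC array was at least 3.45-fold above every ZsG plus array and 3.61-fold above every ZsG minus mTEC array. The difference was −4.37 ± 1.04 in ZsG plus against ZsG minus cTEC (limma adjusted p = 0.0737) and −2.96 ± 1.04 in ZsG minus mTEC against ZsG minus cTEC (limma adjusted p = 0.269), and neither passed.

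Rag2, the partner subunit, had a single probe set, which read 282, 285 and 28.6 for ZsG plus, 179, 117 and 411 for ZsG minus mTEC, and 984, 1009.7 and 1349 for ZsG minus cTEC. All ZsG plus readings and 2 of the 3 ZsG minus mTEC readings lay in the range of the bacterial controls over the 9 arrays. No ZsG minus cTEC reading did. Of those in the range, ZsG plus replicate 1 and ZsG minus mTEC replicate 1 lay above the controls of their own arrays (at most 143.7 and 130.7). The differences were −3.06 ± 0.94 in ZsG plus against ZsG minus cTEC and −2.43 ± 0.94 in ZsG minus mTEC against ZsG minus cTEC (limma adjusted p = 0.132 and 0.319).

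Dntt, the terminal transferase, read 1375, 179.7 and 130.1 for ZsG plus, 1821, 955 and 741 for ZsG minus mTEC, and 14212, 10638 and 14739.6 for ZsG minus cTEC. The lowest ZsG minus cTEC array was 7.74-fold above the highest ZsG plus array and 5.84-fold above the highest ZsG minus mTEC array. Dntt fell by 5.36 ± 0.88 in ZsG plus against ZsG minus cTEC, a ratio of 41.1 (limma adjusted p = 0.0288). Its SD in ZsG plus was 1.84 on the log2 scale, against 0.26 for ZsG minus cTEC, and the test used 1 spread for all groups, so adjusted p-values of comparisons with ZsG plus may be too small. Neither Dntt nor Cd8a passed in this comparison in a fit of only its 6 arrays, in which 0% of all genes passed limma's threshold (limma adjusted p = 0.117 and 0.0885), and Dntt was also lost when any 1 array of ZsG minus mTEC or ZsG minus cTEC was left out (limma adjusted p = 0.054 to 0.13). In ZsG minus mTEC against ZsG minus cTEC the difference was −3.59 ± 0.88 and did not pass (limma adjusted p = 0.115), although it did in a fit of only those 6 arrays (−3.59, limma adjusted p = 0.0226), in which 3.01% of all genes passed against 0.627% otherwise. In ZsG plus against ZsG minus mTEC it was −1.77 ± 0.88, with overlapping arrays.

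The upstream sequences of Cd8a, Dntt, Rag1 and Rag2 are shown because 2 of these genes passed the test and the other two are the recombinase pair, which lie beside each other on opposite strands. Each window holds the 250 bases before the RefSeq start on GRCm38.p6, 5′ to 3′ on the gene's strand: chr6:71373177-71373426 (plus strand) for Cd8a, chr19:41029025-41029274 (plus strand) for Dntt, chr2:101649533-101649782 (minus strand) for Rag1 and chr2:101624462-101624711 (plus strand) for Rag2. Capitals mark matches, on either strand, to the E box letters CAGNTG, the RUNX letters TGTGGT, the ETS letters AGGAAG and the Ikaros letters TGGGAA.
Cd8a: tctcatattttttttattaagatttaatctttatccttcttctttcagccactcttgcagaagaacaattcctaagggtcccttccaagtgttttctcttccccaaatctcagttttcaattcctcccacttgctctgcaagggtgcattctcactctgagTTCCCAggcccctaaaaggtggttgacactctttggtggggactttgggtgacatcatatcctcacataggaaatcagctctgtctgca
Dntt: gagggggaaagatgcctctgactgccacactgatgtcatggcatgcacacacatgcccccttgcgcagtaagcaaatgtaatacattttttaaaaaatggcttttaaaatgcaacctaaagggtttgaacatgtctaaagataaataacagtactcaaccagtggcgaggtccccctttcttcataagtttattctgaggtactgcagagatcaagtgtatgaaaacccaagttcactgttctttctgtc
Rag1: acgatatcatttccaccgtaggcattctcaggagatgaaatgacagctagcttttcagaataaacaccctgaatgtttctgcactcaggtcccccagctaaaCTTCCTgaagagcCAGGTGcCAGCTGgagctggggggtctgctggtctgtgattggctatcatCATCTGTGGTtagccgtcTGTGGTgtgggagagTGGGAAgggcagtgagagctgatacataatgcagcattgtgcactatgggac
Rag2: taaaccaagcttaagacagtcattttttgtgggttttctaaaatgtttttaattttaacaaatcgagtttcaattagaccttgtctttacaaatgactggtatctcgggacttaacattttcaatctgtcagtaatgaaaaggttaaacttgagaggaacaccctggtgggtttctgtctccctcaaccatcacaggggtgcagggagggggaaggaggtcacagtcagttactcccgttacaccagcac
Rag1 held 3 E box, 2 RUNX, 1 ETS and 1 Ikaros match, 1 E box match overlapping a RUNX match, while Cd8a held 1 Ikaros match and Dntt and Rag2 held none of the 4 motifs. The RefSeq promoter table used here matched 9 of the 10 genes, all but Cd4, with a pair of starts each for Lck and Themis, or 11 windows. Among these 11 windows, 4 held an E box, 2 a RUNX, 4 an ETS and 5 an Ikaros match, against 44.8%, 14%, 29.5% and 21.6% of 32817 windows of the same length over all genes. Windows of Lck, which has no intensity here, are among the matches to each of the 4 motifs. These letters are a description of the windows and no measure of binding.

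Ptcra, the pre-receptor alpha chain of early thymocytes, did not share the order of the other members. It read 18.7, 169 and 243 for ZsG plus, 576, 68.5 and 142 for ZsG minus mTEC, and 177, 251 and 158 for ZsG minus cTEC. Only 1 of these 9 readings, that of ZsG minus mTEC replicate 1, lay above the control range over the 9 arrays. ZsG minus mTEC replicate 3 and ZsG minus cTEC replicates 1 and 2 also lay above the controls of their own arrays (at most 48.65, 127.5 and 141.8). The difference was −1.06 ± 1.08 in ZsG plus against ZsG minus cTEC (95% interval −3.49 to 1.37) and −0.11 ± 1.08 in ZsG minus mTEC against ZsG minus cTEC (95% interval −2.54 to 2.32), so a change of several fold in either direction was not detectable at its only probe set.

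Cd3e, the epsilon chain of the CD3 complex, read 238, 1509.6 and 260.5 for ZsG plus, 742, 307 and 176 for ZsG minus mTEC, and 3097, 2663 and 1799.9 for ZsG minus cTEC. The ZsG minus cTEC arrays lay above all others, by 1.19-fold at the closest, which was ZsG plus replicate 2. The differences were −2.44 ± 0.85 in ZsG plus against ZsG minus cTEC, −2.85 ± 0.85 in ZsG minus mTEC against ZsG minus cTEC, and 0.41 ± 0.85 in ZsG plus against ZsG minus mTEC (limma adjusted p = 0.172, 0.187 and 0.861). None passed the threshold.

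Themis, a regulator of receptor signal strength during selection, read 1119.9, 580.0 and 39.2 for ZsG plus, 492, 373 and 337 for ZsG minus mTEC, and 5469, 4052 and 1776 for ZsG minus cTEC. The groups of reporter-negative cells did not overlap, and the closest ZsG plus array lay 1.58-fold under the lowest ZsG minus cTEC array. The differences from ZsG minus cTEC were −3.53 ± 1.13 for ZsG plus and −3.10 ± 1.13 for ZsG minus mTEC (limma adjusted p = 0.146 and 0.290).

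Bcl11b, a zinc finger factor of T lineage commitment, read 23.5, 1685 and 557 for ZsG plus, 3105, 893 and 2531 for ZsG minus mTEC, and 8077, 6458 and 9155 for ZsG minus cTEC. Its ZsG minus mTEC readings were all above the control range, and 1 of its ZsG plus readings was dim. The differences were −4.80 ± 1.35 in ZsG plus against ZsG minus cTEC and −2.03 ± 1.35 in ZsG minus mTEC against ZsG minus cTEC (limma adjusted p = 0.111 and 0.645). In ZsG plus against ZsG minus mTEC it was −2.77 ± 1.35 (95% interval −5.82 to 0.28, limma adjusted p = 0.418), −0.98 without ZsG plus replicate 1, and −0.91 as the mean of its 4 probe sets, of which 2 were positive. Its SD of 3.20 for ZsG plus was the widest of the members there.

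Counted together, 2 of 9 members (Cd8a and Dntt) passed as lower and 0 as higher in ZsG plus against ZsG minus cTEC, beside 1.14% of all genes passing as lower and 0.599% as higher. At an unadjusted p under 0.05, 7 members were lower, beside 11.3% of all genes lower and 7.44% higher. For 7 of 9 the ZsG plus arrays all lay below the ZsG minus cTEC arrays, beside 13.4% of all genes, and all 9 differences were negative. The median difference of the members was −3.53, against −0.14 over all genes. In ZsG minus mTEC against ZsG minus cTEC, 1 of 9 members (Cd8a) passed as lower and 0 as higher, beside 0.0989% of all genes passing as lower and 0.528% as higher. At an unadjusted p under 0.05, 7 were lower, beside 3.9% of all genes lower and 8.4% higher. For 8 of 9, all but Ptcra, the ZsG minus mTEC arrays all lay below the ZsG minus cTEC arrays, beside 11.8% of all genes, and the median was −2.96, against 0.09 over all genes. These comparisons share the ZsG minus cTEC arrays. The members were chosen with earlier results of these data known, so no test over them is given, and in bulk RNA a smaller number of thymocytes cannot be told apart from less of these RNAs per cell.

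In ZsG plus against ZsG minus mTEC, 0 of 9 members passed limma's adjusted threshold, beside 0.203% of all genes passing as lower and 0.0165% as higher, and 0 members had an unadjusted p under 0.05, beside 10.2% of all genes lower and 3.2% higher at that p. None separated the groups, beside 12.3% of all genes separated as lower. Their differences ran from −2.77 (Bcl11b) to 1.45 (Cd4), with a median of −0.72 against −0.33 over all genes. Rag1 stood at −1.41 ± 1.04 and Rag2 at −0.64 ± 0.94, while Ptcra stood at −0.96 ± 1.08 and Themis at −0.43 ± 1.13. This median moved between −1.19 and −0.37 when single arrays were left out, and was −0.16 after quantile normalization and −0.19 with arrays centred on their median. The standard errors of 0.61 to 1.60 left differences of a few fold beyond reach.

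**Figure D2:**
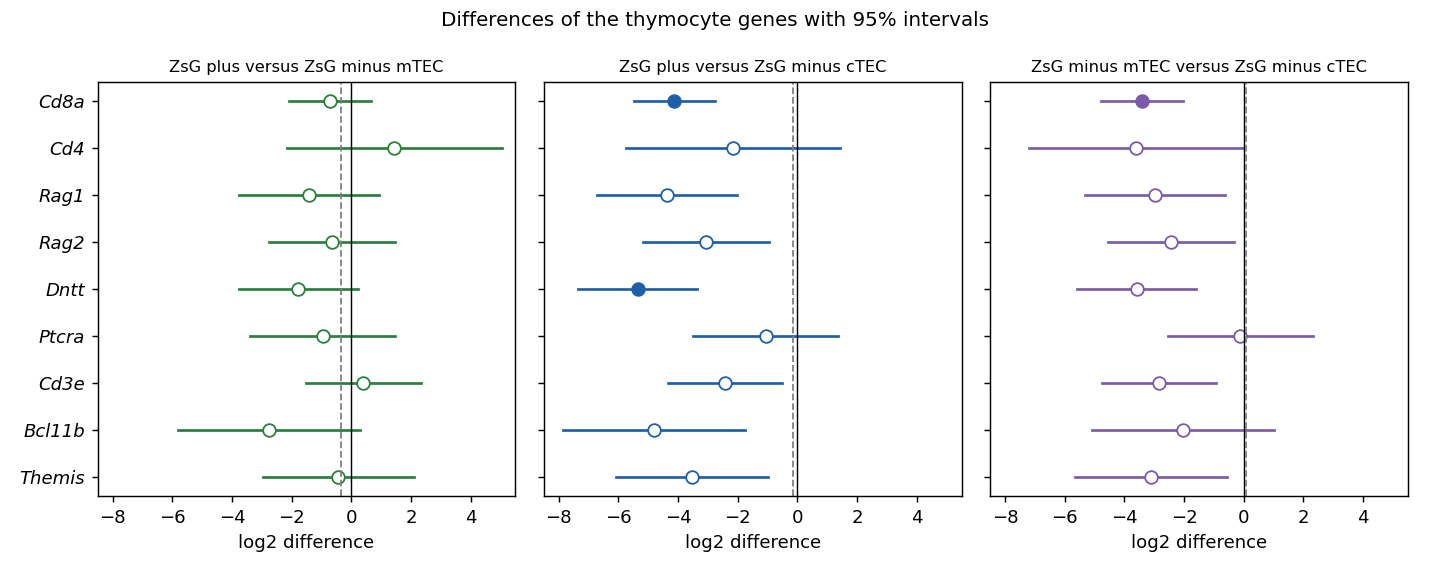
Log2 differences of 9 thymocyte genes (x axis) with 95% intervals from limma in 3 comparisons, with filled points for adjusted p under 0.05 and a dashed line at the median of all genes (−0.33, −0.14 and 0.09 from left to right). Filled points are Cd8a and Dntt in the middle panel and Cd8a in the right panel, and intervals in the left panel all include 0.

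Of the 22 probe sets of the members, all 22 had negative differences in both comparisons with ZsG minus cTEC. The groups did not overlap for 17 of 22 in ZsG plus against ZsG minus cTEC, beside 14.9% of all single-symbol probe sets, and for 20 of 22 in ZsG minus mTEC against ZsG minus cTEC, beside 12.3%. Tested as single probe sets, 2 of 22 passed in the first of these (1 each of Cd8a and Dntt, beside 1.18% of probe sets) and 0 in the second by limma (beside 0.02%). An unadjusted p under 0.05 was reached by 16 of 22 in the first, beside 12.6% of single-symbol probe sets lower at that p, and by 16 of 22 in the second, beside 4.25%. Probe sets of 1 gene share its RNA and are not replicates. In ZsG plus against ZsG minus mTEC, 13 of 22 were negative and 9 positive, and 1, for Dntt, separated the groups, beside 12.8%. In that comparison 0 probe sets passed limma's adjusted threshold, beside 0.217% passing as lower, and 1, of Dntt, had an unadjusted p under 0.05, beside 10.6%.

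Members with several probe sets kept their sign against ZsG minus cTEC but varied in size. The 5 Cd8a probe sets ran from −4.13 to −1.36 in ZsG plus against ZsG minus cTEC and from −3.41 to −0.82 in ZsG minus mTEC against ZsG minus cTEC. The one nearest 0 in both, with the name suffix x, read only 301, 186 and 264 for ZsG minus cTEC. These lay in the control range over the 9 arrays, but above the highest controls of their own arrays (127.5, 141.8 and 240.6). Probe sets so named may also bind other transcripts. The 3 Dntt probe sets ran from −6.65 to −3.56 and from −3.81 to −3.20 in the same comparisons. The Dntt probe set at −6.65 has the same suffix x and read 919, 251 and 9.36 for ZsG plus. It is also the 1 that separated ZsG plus from ZsG minus mTEC. The 4 Themis probe sets ran from −4.94 to −1.87 and from −4.78 to −1.45. The 4 Bcl11b probe sets ran from −4.80 to −1.18 in ZsG plus against ZsG minus cTEC, so its brightest probe set gave the largest size there.

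**Figure D3:**
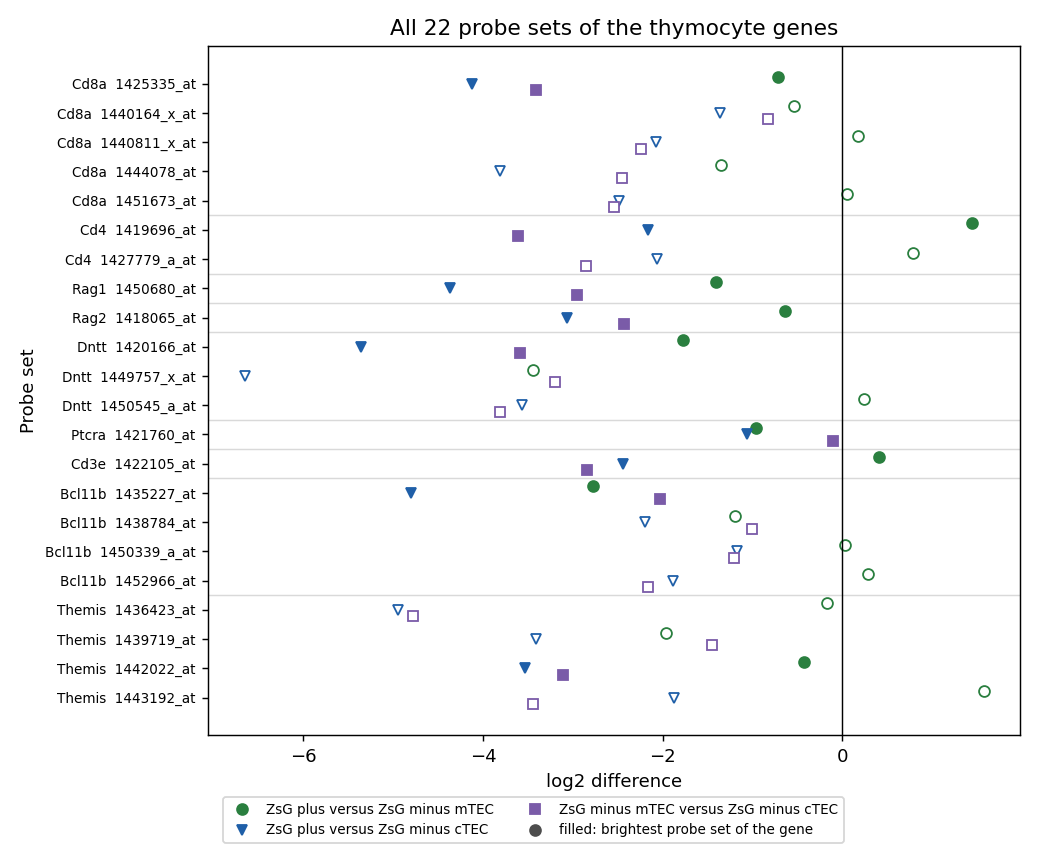
Log2 difference (x axis) of each of the 22 probe sets of the thymocyte genes in 3 comparisons, with filled markers for the brightest probe set of a gene. Triangles and squares, the comparisons with ZsG minus cTEC, all lie left of 0, from −6.65 to −0.11, while circles, ZsG plus versus ZsG minus mTEC, lie on both sides, from −3.45 to 1.57.

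Replicates agreed closely in ZsG minus cTEC and poorly in ZsG plus. The median SD of the 9 members was 2.0 on the log2 scale in ZsG plus, 0.96 for ZsG minus mTEC and 0.35 for ZsG minus cTEC, beside 1.30, 0.63 and 0.61 over all genes. In ZsG plus, the arrays did not share an order: replicate 2 was highest for Rag1, Rag2, Cd3e and Bcl11b, replicate 3 for Cd8a, Cd4 and Ptcra, and replicate 1 for Dntt and Themis. In ZsG minus mTEC, replicate 1 was highest for 7 of 9 members, the others being Cd4 and Rag2. In ZsG minus cTEC, replicate 1 was highest for 5 of 9. Summed over the 9 members, intensity was 4128, 9260 and 7336 for ZsG plus, 11760, 6585 and 7512 for ZsG minus mTEC, and 65680, 47150 and 54280 for ZsG minus cTEC.

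Of 21 measured genes of the receptor complex and its near signalling partners, 0 passed limma's threshold in any of the 3 comparisons, with 10 lower at an unadjusted p under 0.05 in each comparison with ZsG minus cTEC, 1 higher in that of ZsG plus, and 0 in ZsG plus against ZsG minus mTEC. Of these 21, 20 were negative and 13 had ZsG plus arrays all below the ZsG minus cTEC arrays, and 19 were negative and 15 separated in this way in ZsG minus mTEC against ZsG minus cTEC. Over all genes, 13.4% separated as lower and 11.3% were lower at that p in ZsG plus against ZsG minus cTEC. In ZsG minus mTEC against ZsG minus cTEC these shares were 11.8% and 3.9%. Their medians were −1.90 in ZsG plus against ZsG minus cTEC, −2.40 in ZsG minus mTEC against ZsG minus cTEC, and 0.08 in ZsG plus against ZsG minus mTEC. The brightest were Cd247, the zeta chain of the receptor complex, and Rasgrp1, an activator of Ras. Cd247 differed by −0.49 ± 0.66 in ZsG plus against ZsG minus cTEC and by −1.11 ± 0.66 in ZsG minus mTEC against ZsG minus cTEC. Rasgrp1 differed by −0.57 ± 0.82 and −2.05 ± 0.82 in these comparisons.

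Of 17 measured T lineage transcription factors, Gfi1, a repressor active in early lymphocytes, fell by 3.39 ± 0.70 in ZsG plus against ZsG minus cTEC (limma adjusted p = 0.0494), and no other passed. The list had 12 of 17 genes negative and a median of −1.01 in that comparison, and 11 of 17 negative and a median of −1.15 in ZsG minus mTEC against ZsG minus cTEC. In the latter 0 passed and 5 were lower at an unadjusted p under 0.05, beside 3.9% of all genes. Bright Myb and Ikzf3, both lymphoid factors, differed by −1.01 ± 0.70 and 0.07 ± 0.73 in ZsG plus against ZsG minus cTEC. Of 11 measured genes of thymocyte stages, Arpp21, a phosphoprotein gene used as a mark of double-positive cells, fell by 3.85 ± 0.70 in ZsG plus against ZsG minus cTEC (limma adjusted p = 0.0372) and no other passed. Il2ra and Klf2, of the earliest and the mature stages, differed by −1.33 ± 0.65 and −0.22 ± 0.68 there. This list had 8 of 11 genes negative and a median of −1.23 in that comparison. In ZsG minus mTEC against ZsG minus cTEC it had only 6 of 11 negative and a median of −0.47. There 2 were lower and 2 higher at a limma unadjusted p under 0.05, beside 3.9% and 8.4% of all genes.

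The 9 measured general partners of recombination, which repair breaks in all cells, had medians of −0.88 in ZsG plus against ZsG minus cTEC and 0.51 in ZsG minus mTEC against ZsG minus cTEC. Xrcc5, of the Ku heterodimer, fell by 5.64 ± 0.69 in ZsG plus against ZsG minus cTEC and fell by 4.71 ± 0.69 in ZsG plus against ZsG minus mTEC (limma adjusted p = 0.0127 and 0.0426), and no other passed. All 3 of its ZsG plus readings were under 100. Bright Hmgb2, a cofactor of the recombinase, differed by −1.02 ± 0.48 and −0.32 ± 0.48 in these comparisons.

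Of 12 pan-leukocyte genes, which thymocytes also express as a class, Cd48, a surface protein of blood cells, fell by 7.19 ± 0.66 in ZsG plus against ZsG minus cTEC and fell by 4.91 ± 0.66 in ZsG plus against ZsG minus mTEC (limma adjusted p = 0.00781 and 0.0363), and no other passed. The Cd48 readings for ZsG plus were 24.6, 9.10 and 26.9, all dim, so the size of these differences is uncertain. Laptm5, a lysosomal protein of blood cells, differed by 1.21 ± 0.49, and Lcp1, an actin bundler of leukocytes, by 1.03 ± 0.63 in ZsG plus against ZsG minus cTEC, where 6 of 12 were negative and the list median was −0.03. Beside Cd48, the genes lower at an unadjusted p under 0.05 there were Ptprc, the CD45 phosphatase (−1.85 ± 0.49), Coro1a, an actin regulator (−2.19 ± 0.62), and Cytip, a cytohesin partner (−3.49 ± 0.93), named after their values were seen and past no adjusted threshold (limma adjusted p = 0.0971, 0.113 and 0.0969). The 2 genes higher at that p were Laptm5 and Cd52 (1.39 ± 0.54), also past no adjusted threshold (limma adjusted p = 0.2315 and 0.2127). Over all genes, 11.3% were lower and 7.44% higher at that p. In ZsG minus mTEC against ZsG minus cTEC the list median was −1.33, with 8 of 12 negative and 0 past limma's adjusted threshold. There 7 separated as lower, beside 11.8% of all genes, and 5 were lower at an unadjusted p under 0.05, beside 3.9%. Its summed intensity was 139600 to 249600 for ZsG plus, 123100 to 132500 for ZsG minus mTEC and 128000 to 172200 for ZsG minus cTEC. The 13 dendritic cell and macrophage markers had medians of 0.36 in ZsG plus against ZsG minus cTEC and 0.23 in ZsG minus mTEC against ZsG minus cTEC, where Flt3, a receptor of dendritic cell precursors, fell by 4.27 ± 0.74 (limma adjusted p = 0.0485).

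Like the members, cortical epithelial and fibroblast genes summed to less for ZsG plus and ZsG minus mTEC than for ZsG minus cTEC. The 11 cortical epithelial genes summed to 56900 to 107900 for ZsG plus, 83220 to 109600 for ZsG minus mTEC and 327000 to 399400 for ZsG minus cTEC. All 11 were negative in both comparisons with ZsG minus cTEC. For ZsG plus 3 passed (the surface peptidase gene Enpep, Prss16 and the thymoproteasome subunit gene Psmb11), beside 1.14% of all genes passing as lower. For ZsG minus mTEC 2 passed (Prss16 and the surface protein gene Cd83), beside 0.0989%. The 8 fibroblast markers, of which Thy1 is also a thymocyte gene, summed to 8591 to 25830 for ZsG plus, 7784 to 12770 for ZsG minus mTEC and 47520 to 66980 for ZsG minus cTEC, and Dcn, a matrix proteoglycan, was the gene that passed in both comparisons (limma adjusted p = 0.0258 and 0.0455). No marker of either list was at 0. The part of these cells in the thymocyte signal was not tested.

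The 9 B cell markers ran the other way in sum, at 4550 to 12980 for ZsG plus, 5681 to 7123 for ZsG minus mTEC and 2410 to 4300 for ZsG minus cTEC, with 0 called by limma and medians of 0.76 and 0.70 against ZsG minus cTEC. In these comparisons 3 and 2 were higher at an unadjusted p under 0.05, beside 7.44% and 8.4% of all genes, while 3 and 2 of the 9 were negative. Cd79a alone read 8136 on ZsG plus replicate 1, most of that array's sum of 12980, and 36.1 on ZsG plus replicate 2. The 7 NK cell markers summed to 3865 to 7428, 2472 to 3509 and 5492 to 6116 in the same order of groups, with 0 called by limma in any comparison. Against ZsG minus cTEC, 2 and 1 were lower at an unadjusted p under 0.05, beside 11.3% and 3.9% of all genes. Nkg7 was under 100 on every array. The 4 measured erythroid markers summed to 680.0 to 2328 for ZsG plus, 2595 to 5317 for ZsG minus mTEC and 247 to 664 for ZsG minus cTEC, and Epb42, a red cell membrane protein gene, rose by 3.91 ± 0.58 in ZsG minus mTEC against ZsG minus cTEC (limma adjusted p = 0.0358). The 8 epithelial identity genes summed to 223500 to 316000 for ZsG plus, 176400 to 186800 for ZsG minus mTEC and 119600 to 163800 for ZsG minus cTEC, with 0 called by limma. Of 6 medullary genes, the regulators Fezf2 and Aire and the histamine enzyme gene Hdc rose in both comparisons with ZsG minus cTEC (limma adjusted p from 0.0258 to 0.0451). Over all genes, 0.599% passed as higher for ZsG plus and 0.528% for ZsG minus mTEC in these comparisons.

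**Figure D4:**
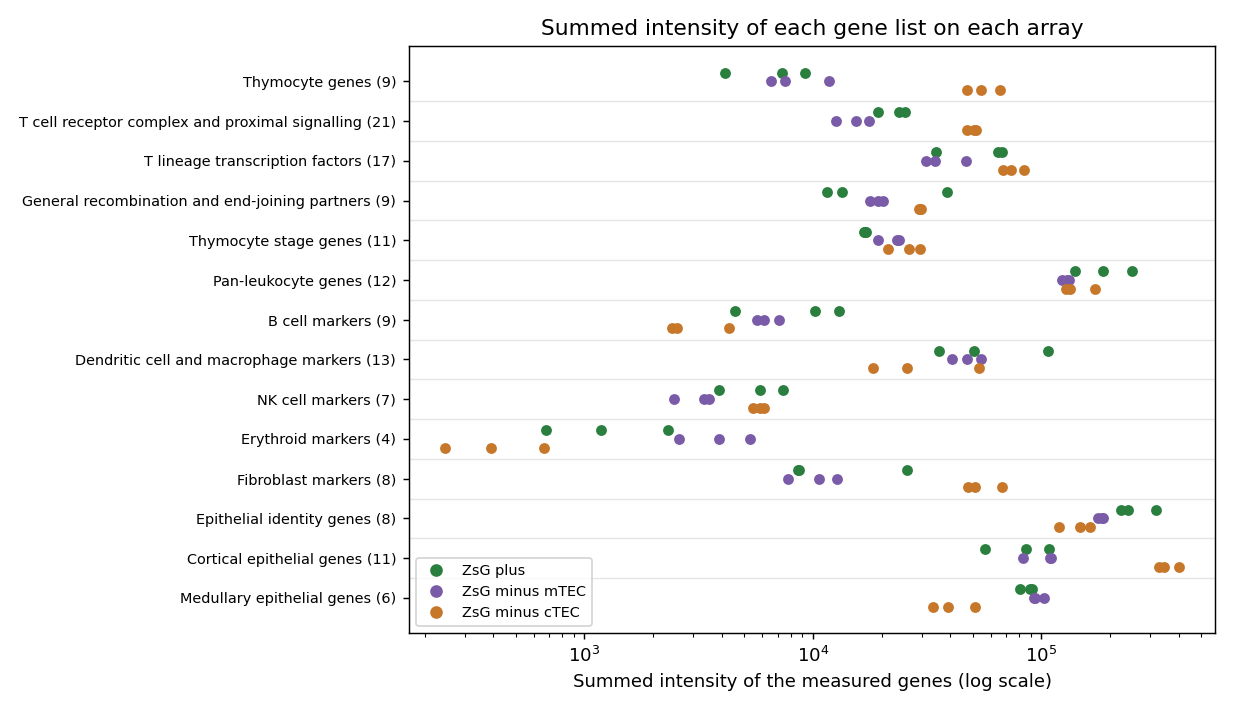
Summed intensity (log scale) of the measured genes of each list (their number in brackets) on each of the 9 arrays, with 1 point per array. For the thymocyte genes the ZsG minus cTEC arrays sum to 47150 to 65680, against 4128 to 9260 for ZsG plus and 6585 to 11760 for ZsG minus mTEC, while the pan-leukocyte sums for ZsG plus overlap those for ZsG minus cTEC.

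None of the 8 genes nearest in pattern to the members was on the lists used here. Likeness was the root mean square difference over 9 arrays between a gene's centred log2 values and the mean of the 9 members' centred values, among genes with a group mean above 500. Dck, which encodes deoxycytidine kinase of the nucleotide salvage pathway, was nearest at 0.34, followed by the cytokine receptor gene Lifr (0.39), the chemokine receptor gene Ccr7 (0.42), the telomere protein gene Pot1b (0.52), the chromosome pairing gene Trip13 (0.54), the matrix protease gene Mmp2 (0.55), the guanylate binding protein gene Gbp3 (0.56) and the Notch ligand gene Jag2 (0.56). Dck read 200.2, 736 and 199 for ZsG plus, 528, 413 and 743 for ZsG minus mTEC, and 2998, 1936 and 2930.3 for ZsG minus cTEC. The members themselves lay between 0.72 (Cd8a) and 2.19 (Cd4) from their own mean by the same measure. Ccr7, which guides maturing thymocytes and dendritic cells, read 1920.1, 3432 and 1724 for ZsG plus, 2814, 2818 and 4449 for ZsG minus mTEC, and 20331, 37505 and 19629.7 for ZsG minus cTEC. Each of Dck and Ccr7 was highest on the ZsG minus cTEC arrays, with no overlap. That order follows from their choice by likeness on these same 9 arrays and is no separate result.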

How the data were processed

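RNA was extracted on spin columns, treated with DNase and amplified from 5 ng, per the labels' protocols. The authors deposited a linear intensity for every probe set of each array. No source used here names the software or detection calls. Trimming 2% of values at either end gave every array in the files a mean of 1250, so arrays share a trimmed mean while medians differ. Depth has no meaning for arrays, and 3 per group limit the precision.

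Log2 values were used without an offset. Probe sets with 1 symbol in the annotation table were kept, and the brightest stood for its gene (9012 genes had several). The test was limma 3.58.1 in R 4.3.3 (lmFit, eBayes; 1 coefficient per group over 9 arrays, 6 residual and 3.28 prior degrees of freedom), two-sided, with Benjamini-Hochberg adjustment over 18194 genes and a threshold of 0.05. A value after ± is limma's standard error. Whether replicates are separate animals is not stated, so the p-values reflect only the spread among these samples, possibly technical. In simulated data on which the steps were tested, giving ZsG plus its wider spread, the shared spread called more unchanged genes than with equal spreads, so adjusted p-values of comparisons with ZsG plus may be too small.

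The members and the 13 other lists (136 of 148 entries measured) were chosen with earlier results of these data known. Named are all members; per list, up to 3 genes past the threshold each way and 2 of the brightest not past it, of which only some are quoted; and the 8 genes most like the members. Same-numbered replicates did not deviate together (r from -0.015 to 0.013 across genes, 9 pairs), and numbers were not used to pair samples in the main fit. These correlations cannot tell whether same-numbered samples shared animals or handling, which is not stated. Upstream sequences are RefSeq's, GRCm38.p6. Alternatives changed the probe set rule, the filter on dim genes, an offset of 50, a floor of 100, the normalization, the arrays in the fit, array weights, a replicate block and single arrays left out. Figures were drawn with matplotlib 3.10.9.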

Additional observations from a re-analysis of the deposited data

How the results depend on the processing

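Over 19 alternatives the median difference of the members stayed within −4.02 and −2.75 in both comparisons with ZsG minus cTEC. Of 510 single-member values, 449 kept their direction and their side of the threshold. Some alternatives can change a p-value but no difference, so their agreement in size and direction was fixed in advance. These are every probe set tested, only the 6 arrays, the replicate block, and leaving out an array of the group not compared. Counts of members called often, but not always, moved with the share of all genes called, given in brackets. With a floor of 100 the count stayed at 2 in ZsG plus against ZsG minus cTEC, although the share rose to 4.74%. In ZsG minus mTEC against ZsG minus cTEC it stayed at 1 with that floor (2.34%). In ZsG plus against ZsG minus cTEC, where 2 members were called (1.74%), 4 were called with log2(value + 50) (3.63%), and 0 by limma in a fit of only the 6 arrays (0%), with array weights (0.203%) or with the replicate block (0.0879%), in each of which 7 had an unadjusted p under 0.05. Leaving out single arrays gave 0 to 5 calls: 0 without ZsG minus cTEC replicate 1 or 2 (0%) or 3 (0.126%), 1 without any 1 ZsG minus mTEC array (0.280% to 0.445%), and 5 without ZsG plus replicate 2 (4.04%). In ZsG minus mTEC against ZsG minus cTEC, where 1 was called (0.627%), 0 were called by limma with every probe set tested (0.148%), with arrays centred on their median (0.390%) or with the replicate block (0%, 7 at an unadjusted p under 0.05), 2 with log2(value + 50) (1.84%), 3 in a fit of only the 6 arrays (3.01%) and 6 with array weights (6.71%). Leaving out single arrays gave 0 to 2 calls there, 0 without any 1 array of either compared group (0%) or without ZsG plus replicate 2 (0.709%), and 2 without ZsG plus replicate 3 (1.67%). The cause was not tested. Cd8a passed in 13 of 19 alternatives in ZsG plus against ZsG minus cTEC and in 7 of 19 in ZsG minus mTEC against ZsG minus cTEC, and Dntt in 10 of 19 in the first of these. Between ZsG plus and ZsG minus mTEC 0 members were called by limma under the 19 alternatives, but in 8 of these 0% of all genes were, and the share was at most 1.26% in the others, so the count says little of the members.

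Signs turned only where no call was made. Between ZsG plus and ZsG minus mTEC, Themis became 0.0238 with a floor of 100, 0.051 with quantile normalization, 0.11 with arrays centred on their median and 0.11 with array weights. With single arrays left out, Themis ran from −1.39 to 1.03, Cd3e from −0.46 to 0.97, Cd4 from −0.0901 to 2.87, Ptcra from −1.66 to 0.19 and Rag2 from −1.19 to 0.47. Ptcra ran from −1.77 to 0.0834 between ZsG plus and ZsG minus cTEC and from −0.96 to 0.58 between ZsG minus mTEC and ZsG minus cTEC, where it also became 0.0023 with log2(value + 50) and 0.075 with a floor of 100. The replicate block could change no direction, because each replicate number occurs once in each group.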
